A study of Homo sapiens with 4 samples.

Results

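The genes described here make, store, take up and break down the catecholamines dopamine, noradrenaline and adrenaline. They are 9 of the 19775 genes that the platform's annotation names alone on at least 1 probe set, and they were chosen by symbol from what they are known to do: TH, DDC, DBH, PNMT, GCH1, SLC18A1, SLC18A2, SLC6A2 and MAOA. All probe sets carrying exactly 1 of these symbols were kept, 21 of 41091. A probe set is a group of short probes on the array that together report 1 transcript or part of it.

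Transcripts were measured in SH-SY5Y, a human neuroblastoma line of neuronal character, on 4 Affymetrix arrays. The siLSD1 group (2 arrays) came from cells transfected with a small interfering RNA against LSD1, the histone lysine demethylase encoded by KDM1A, and the siControl group (2 arrays) from cells of the same line transfected with a control siRNA. According to the design text the transfections of a group were separate experiments, so the spread below is that between cultures of 1 cell line. The sources used here do not give the time between transfection and harvest.

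Catecholamines are made from tyrosine. TH turns tyrosine into L-DOPA in the rate-limiting step and needs tetrahydrobiopterin, for which GCH1 catalyses the first step. DDC turns L-DOPA into dopamine, DBH turns dopamine into noradrenaline inside vesicles, and PNMT methylates noradrenaline to adrenaline. The vesicular monoamine transporters, VMAT1 (SLC18A1) in endocrine cells and VMAT2 (SLC18A2) in neurons and chromaffin cells, fill the vesicles. SLC6A2 is the noradrenaline transporter that takes released transmitter back up, and MAOA is a mitochondrial oxidase that degrades noradrenaline, serotonin and dopamine. Neuroblastoma arises from the sympathetic lineage, in which TH, DBH and SLC6A2 are hallmarks of the noradrenergic phenotype.

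Of the 9 genes, 4 had a promoter window in the RefSeq table used, from 250 bases before to 50 after an annotated start (build GRCh38.p14). The windows of DBH, SLC18A2 and MAOA are shown because these genes stand for different situations on the arrays: DBH gave strong signal, SLC18A2 stayed below the level taken as measurable, and MAOA had 3 measurable probe sets whose differences had the same sign. The capitals mark the letters TGACGT, the core of the cAMP response element, GGGCGG, the GC box that binds Sp1 family factors, and ATTA, the core of many homeodomain sites, each on either strand. TGACGT was found in 7.98% of all 35116 promoter windows, GGGCGG in 45% and ATTA in 50.2%.

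DBH, chr9:133636113-133636412, plus strand: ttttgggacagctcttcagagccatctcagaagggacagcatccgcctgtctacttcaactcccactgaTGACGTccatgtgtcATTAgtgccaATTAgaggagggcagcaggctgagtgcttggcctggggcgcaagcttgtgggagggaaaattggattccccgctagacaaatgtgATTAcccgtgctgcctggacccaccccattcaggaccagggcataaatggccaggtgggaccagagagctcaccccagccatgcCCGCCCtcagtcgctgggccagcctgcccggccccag

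SLC18A2, chr10:117240864-117241163, plus strand: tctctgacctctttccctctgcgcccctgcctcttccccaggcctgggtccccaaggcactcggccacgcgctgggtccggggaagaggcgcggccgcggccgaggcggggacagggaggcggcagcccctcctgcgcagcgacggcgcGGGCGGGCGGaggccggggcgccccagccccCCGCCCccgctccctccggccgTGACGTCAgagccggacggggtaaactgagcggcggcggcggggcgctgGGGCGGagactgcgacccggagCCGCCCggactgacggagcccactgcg

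MAOA, chrX:43656049-43656348, plus strand: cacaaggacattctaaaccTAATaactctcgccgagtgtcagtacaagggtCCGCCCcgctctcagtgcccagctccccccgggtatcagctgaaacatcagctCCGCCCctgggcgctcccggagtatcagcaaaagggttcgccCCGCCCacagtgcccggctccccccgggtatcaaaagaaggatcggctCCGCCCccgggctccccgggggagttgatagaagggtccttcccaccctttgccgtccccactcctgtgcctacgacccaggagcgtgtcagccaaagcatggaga

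The DBH window held 1 TGACGT, which began at -181, and 3 ATTA, which began at -166, -156 and -71 from the start, together with 1 GC box on the minus strand after the start. The SLC18A2 window held TGACGT on both strands, overlapping at -48 and -46 as the full palindrome, together with 5 GC boxes, and no ATTA. The MAOA window held 4 GC boxes, which began at -199, -146, -104 and -56 on the minus strand, with 1 ATTA and no TGACGT. These matches describe the letters only, and the arrays did not measure binding.

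All levels below are log2 signals after quantile normalization, which gives the arrays 1 common distribution. All differences are log2 fold changes of siLSD1 over siControl, with 95% intervals from limma's moderated test. Genes whose brightest probe set had a mean under 4.12, the 40th percentile of all genes, were not tested in the gene fit, and 11865 genes were. A second fit held each of the 41091 probe sets, dim ones included. Signals of different probe sets depend on their probes, so levels are compared between arrays and not between genes.

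KDM1A itself was at 8.40 and 8.54 in siLSD1 cells and at 9.79 and 9.78 in siControl cells, a log2 fold change of -1.32 (95% interval -1.69 to -0.95), with an adjusted p of 0.394 in limma. In the gene fit 0 genes (0% of those tested) passed an adjusted p of 0.05, and 408 (3.44%) had an unadjusted p under 0.05 in limma. The 7 noradrenergic markers PHOX2A, HAND2, GATA2, GATA3, ISL1, CHGA and CHGB were all above the filter level, whereas TH was below it on all 4 arrays. By the choice of the filter 11865 of 19775 genes were above it, so these counts alone do not show the character of the cells. Markers of serotonergic neurons (0 of 3), blood cells (0 of 3) and glia (0 of 1 measured) were all below the filter level, whereas 4 of 4 fibroblast genes, 1 of 4 markers of midbrain dopamine neurons and 1 of 2 cholinergic markers were above it. An array of each group stood apart. Across probe sets, siControl replicate 1 correlated with the other arrays at 0.919 to 0.921, whereas every other pair reached 0.933 to 0.936. The mean signal of the 18S ribosomal RNA control probe sets, as deposited, was 5.96 and 10.54 in siLSD1 and 5.49 and 5.79 in siControl, and the 3' minus 5' signal of beta-actin was 0.71 and 1.16 in siLSD1 and 0.70 and 0.54 in siControl. The array siLSD1 replicate 2 was the highest on both measures. In RNA from a whole culture, less RNA per cell and fewer cells that express a gene cannot be told apart.

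Catecholamine genes did not move together. Of the 9, 7 were above the filter, and in the gene fit 4 of them had a positive and 3 a negative difference, with a median of 0.010 against 0.0071 over all genes tested. These counts were 3 and 4 under the deposited scaling and 6 and 1 under median centring, where the median of all genes was 0.18. None of the 7 passed an adjusted p of 0.05 in limma (background 0%), and 1, SLC6A2, had an unadjusted p under 0.05 (background 3.44%). With the mean of all probe sets limma's unadjusted p was 0.112 for SLC6A2 and 0.0184 for DBH. The DBH mean includes a probe set below the filter level. SLC6A2 was also the only one of the 7 whose groups did not overlap, against a background of 31.6%, and under median centring the groups of GCH1 did not overlap either. At the level of probe sets, 14 of 21 were above the filter. In the fit of all probe sets 0 of the 21 passed (background 0%) and 2 had an unadjusted p under 0.05 (background 3.99%). Limma's mean-variance trend lets the variance depend on the signal level. Without it the unadjusted p of these 2 was 0.102 (SLC6A2 215715_at) and 0.130 (DDC 214347_s_at). Groups did not overlap for 6 of the 21, 4 with siLSD1 above and 2 with siLSD1 below, against a background of 32.6% over both directions. Under the deposited scaling 5 of the 21 did not overlap, 3 above and 2 below, and under median centring 6, 5 above and 1 below.

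**Figure D1:**
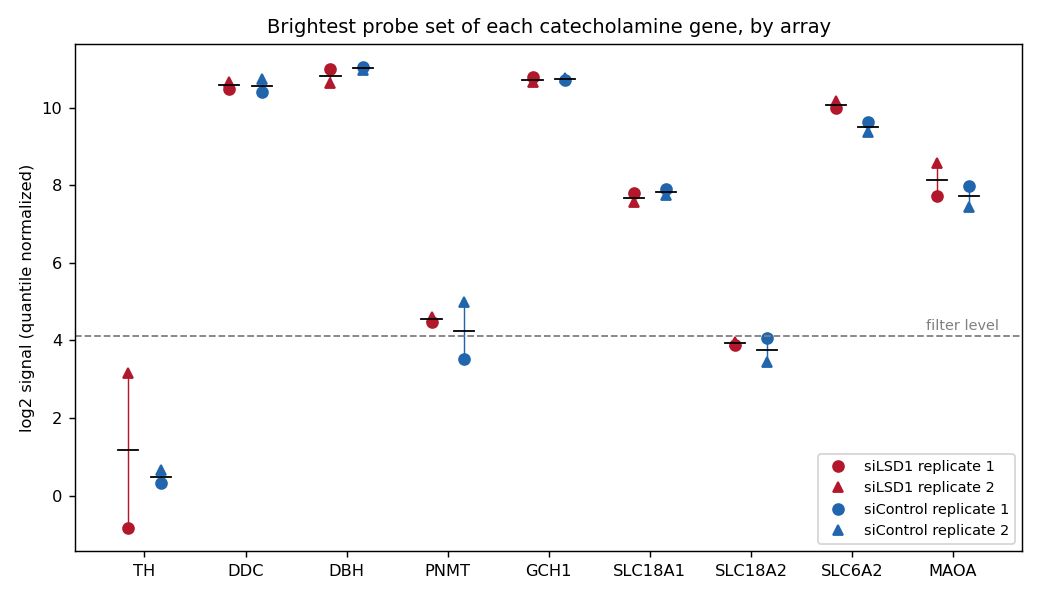
Log2 signal of the brightest probe set of each gene (y axis) on the 4 arrays, siLSD1 in red and siControl in blue, circles for replicate 1, triangles for replicate 2, black bars for group means; the dashed line is the filter level of 4.12. SLC6A2 is the 1 gene above the line whose red and blue points do not overlap, and TH lies below the line on all arrays.

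The enzymes of the pathway were considered first. TH had 1 probe set, with signals of -0.83 and 3.16 in siLSD1 and 0.33 and 0.65 in siControl. All 4 values lay below the filter level, and the siLSD1 values bracketed those of siControl by a wide margin. The interval of the difference, from -2.68 to 4.03, was wide enough to hold large changes in either direction, so a change of TH was not detectable with this probe set. DDC, DBH and GCH1, by contrast, were above the filter level on all 4 arrays.

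DDC was read by 2 probe sets above the filter that gave different results. The brighter one, 205311_at, was at 10.49 and 10.67 in siLSD1 and at 10.40 and 10.74 in siControl, so that the siControl values enclosed those of siLSD1. Its difference was 0.010 (95% interval -0.31 to 0.33 in the gene fit), which leaves room for fold changes between 0.809 and 1.25. The dimmer one, 214347_s_at, was at 7.59 and 6.99 in siLSD1 and at 7.77 and 8.32 in siControl. Both siLSD1 values were below both siControl values, and the difference in the fit of all probe sets was -0.76 (95% interval -1.45 to -0.061, limma's unadjusted p = 0.0369, adjusted p = 0.986). The suffix of 214347_s_at marks a probe set that can detect more than 1 transcript. Other member probe sets carry it too, among them the only ones of TH, GCH1 and SLC18A1. The annotation table gave no accession for 214347_s_at. The lowest of its values was on siLSD1 replicate 2, the array with the strong ribosomal signal. Without that array the difference was -0.45, without siLSD1 replicate 1 it was -1.06, and under the deposited scaling it was -0.70 (limma's unadjusted p = 0.0543). Under median centring it was -0.52 (limma's unadjusted p = 0.143), and the groups overlapped. Without limma's mean-variance trend the unadjusted p was 0.130. The difference was -0.48 without siControl replicate 2, and the part of that array in the result was not tested.

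DBH had signals of 11.00 and 10.63 in siLSD1 and of 11.05 and 10.98 in siControl from probe set 206450_at. The groups overlapped, since siLSD1 replicate 1 lay between the siControl values. Group means were 10.81 ± 0.26 in siLSD1 and 11.02 ± 0.053 in siControl (SD, n = 2 each), a difference of -0.20 (95% interval -0.49 to 0.089, limma's adjusted p = 0.9997). On the linear scale the interval ran from 0.711 to 1.06 of the siControl level. The lower mean rested on siLSD1 replicate 2, without which the difference was -0.019. The other DBH probe set, 234916_at, was below the filter level on all 4 arrays, with 0.80 and 2.57 in siLSD1 against 2.98 and 3.49 in siControl. The groups of this dim probe set did not overlap, and the interval of its difference ran from -3.58 to 0.49.

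PNMT, the enzyme that makes adrenaline, was close to the filter level, with 4.49 and 4.62 in siLSD1 and 3.52 and 4.98 in siControl. The siControl arrays enclosed those of siLSD1 and differed from each other by 1.46. The difference of 0.30 (95% interval -0.91 to 1.51) was -0.43 without siControl replicate 1 and 1.03 without siControl replicate 2, so the control arrays decided its sign. GCH1, which starts the synthesis of the cofactor tetrahydrobiopterin, was the most tightly measured member, with 10.80 and 10.66 in siLSD1 and 10.71 and 10.76 in siControl. Its difference of -0.0035 had a 95% interval from -0.23 to 0.23, which corresponds to 0.85 to 1.17 of the siControl level. For GCH1 a change of 1.5-fold in either direction therefore lay outside the interval.

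**Figure D2:**
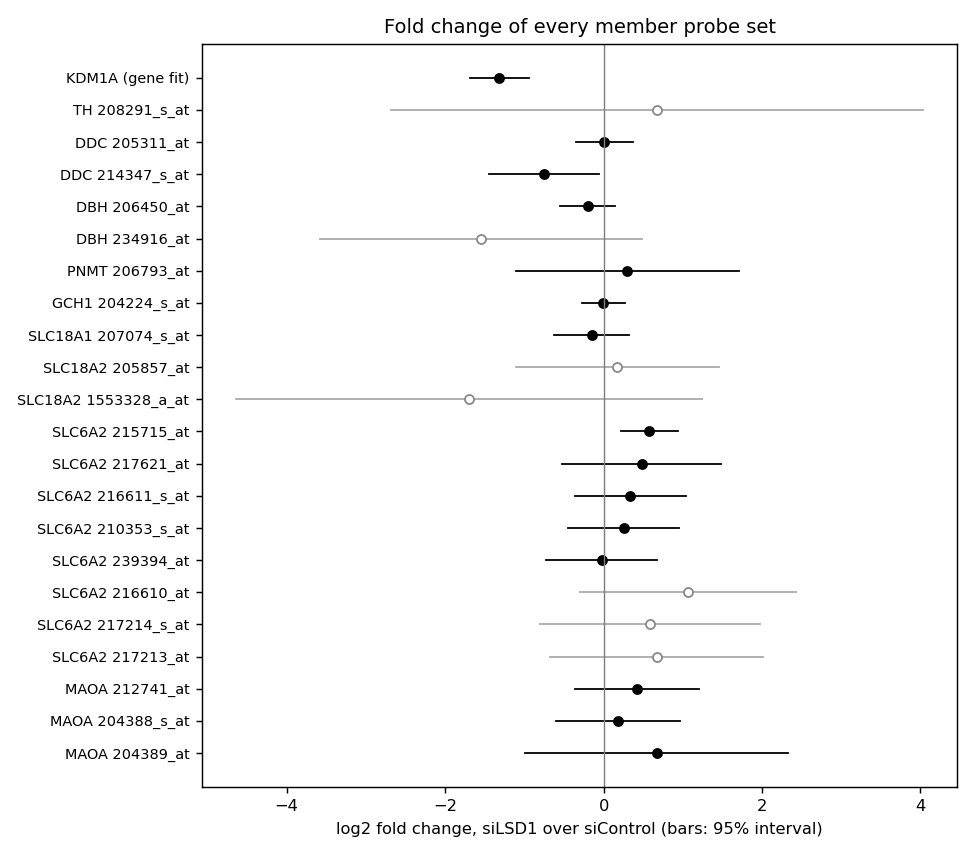
Log2 fold change of siLSD1 over siControl (x axis) with its 95% interval from limma for KDM1A and the 21 probe sets of the 9 genes; filled points are probe sets with a mean above the filter level, open grey points those below it. The intervals of SLC6A2 215715_at and DDC 214347_s_at are the 2 among member probe sets that leave out 0. Without limma's mean-variance trend their unadjusted p was 0.102 and 0.130.

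Both vesicular transporters were examined next. SLC18A1 (VMAT1) was at 7.80 and 7.57 in siLSD1 and at 7.91 and 7.76 in siControl. The groups overlapped, and the difference was -0.15 (95% interval -0.66 to 0.35, limma's adjusted p = 0.9997), which turned to 0.079 under median centring, a scaling that moved the median of all genes to 0.18. SLC18A2 (VMAT2) was below the filter level on all 4 arrays with both of its probe sets. Probe set 205857_at gave 3.89 and 3.95 in siLSD1 and 4.05 and 3.44 in siControl, just under the filter level. Probe set 1553328_a_at gave 1.52 and -1.15 in siLSD1 against 2.77 and 0.9995 in siControl, and the interval of its difference ran from -4.64 to 1.24. VMAT1 was thus measurable on these arrays, while a change in VMAT2 was not detectable at these signals.

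SLC6A2, the noradrenaline transporter, had 8 probe sets, more than any other member, of which 5 were above the filter. The brightest, 215715_at, was at 10.00 and 10.17 in siLSD1 and at 9.62 and 9.38 in siControl. Both siLSD1 arrays lay above both siControl arrays, and the gap between the groups was larger than that within either group. Under the deposited scaling the values were 9.98 and 10.13 in siLSD1 and 9.68 and 9.34 in siControl. The groups did not overlap there either, but the gap between them was smaller than the 0.34 between the siControl arrays. Means were 10.08 ± 0.12 in siLSD1 and 9.50 ± 0.17 in siControl (SD, n = 2 each), a 1.49-fold difference (log2 0.58, 95% interval 0.24 to 0.92). Limma's unadjusted p was 0.00443 and the adjusted p over all genes 0.9997, so the difference did not pass. Without limma's mean-variance trend the unadjusted p was 0.0309 in the gene fit and 0.102 in the fit of all probe sets. Without siLSD1 replicate 2 the difference was 0.50 (limma's unadjusted p = 0.055). With 2 arrays in each group, the smallest p that an exact two-sided permutation test allows is 0.333.

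The other probe sets of SLC6A2 repeated this separation only in part. Probe set 217621_at was at 9.20 and 9.96 in siLSD1 against 9.74 and 8.46 in siControl, a difference of 0.48 with overlapping groups. Probe set 216611_s_at was at 8.96 and 9.21 in siLSD1 against 9.20 and 8.29 in siControl, a difference of 0.34, and the siControl replicate 1 value lay between the siLSD1 values. In both of these probe sets siControl replicate 1 fell in the range of the siLSD1 arrays and siControl replicate 2 was the low array. Probe set 210353_s_at gave 8.98 and 8.16 in siLSD1 against 8.51 and 8.12 in siControl, a difference of 0.26 that came from siLSD1 replicate 1. Probe set 239394_at gave 7.46 and 7.36 in siLSD1 against 7.83 and 7.05 in siControl, a difference of -0.026 that became 0.0089 under the deposited scaling and 0.18 under median centring. Of the 5 measurable probe sets, then, 4 had a positive difference and 1 did not, and 1 of the 5 separated the groups.

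The 3 dim probe sets of SLC6A2, all with means below the filter level, separated the groups as well, with differences of 1.07 (216610_at), 0.59 (217214_s_at) and 0.67 (217213_at). The groups of 217214_s_at overlapped under the deposited scaling and under median centring. Their intervals each included 0, the widest from -0.81 to 1.98, and all 3 were listed under the same accession, as was 216611_s_at. In all, 7 of 8 probe sets had a positive difference and 7 of 8 had their lowest value on siControl replicate 2, where 25.2% of all probe sets had theirs. The probe sets report 1 gene on the same arrays and are not replicates of the comparison. Of the 5 measurable ones, 4 had a negative difference either with all arrays or without 1 of siControl replicate 2 and siLSD1 replicate 1.

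**Figure D3:**
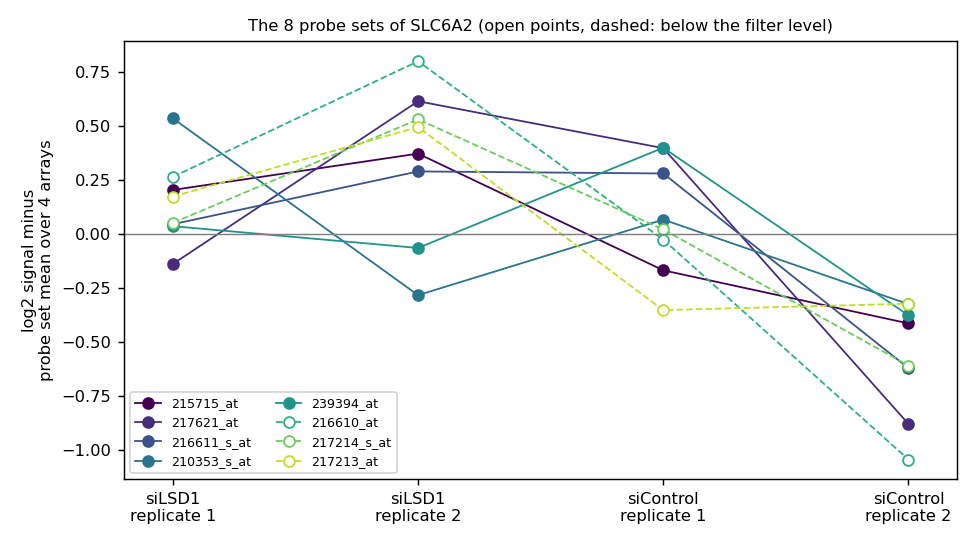
Log2 signal of each of the 8 SLC6A2 probe sets minus its mean over the 4 arrays (y axis), by array (x axis); filled points and full lines are probe sets above the filter level, open points and dashed lines those below it. The probe sets share their arrays, and 7 of the 8 lines reach their lowest point on siControl replicate 2.

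The low array for SLC6A2 also differed in other genes. The summed signal of 4 fibroblast genes was 9.59 and 9.80 on the log2 scale in siLSD1 and 9.68 and 9.09 in siControl, lowest on siControl replicate 2 as well. That of the 7 noradrenergic markers was 13.59 and 13.63 in siLSD1 and 13.48 and 13.94 in siControl, highest on that array. All 4 fibroblast genes were lowest there, whereas 4 of the 7 noradrenergic markers, CHGA with 12.02 among them, were highest there and 1, GATA3, was lowest. The part of these differences in the SLC6A2 difference was not tested. With siControl replicate 2 left out, the brightest SLC6A2 probe set had a difference of 0.46 in the gene fit. Its groups did not overlap, so that sign could not turn. The differences of 217621_at and 216611_s_at were then -0.16 and -0.11.

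MAOA, which degrades the transmitter after reuptake, had 3 probe sets above the filter, all with a positive difference and overlapping groups. The brightest, 212741_at, was at 7.71 and 8.58 in siLSD1 and at 7.99 and 7.45 in siControl. The siLSD1 arrays differed from each other by 0.864, more than the group means did, and the difference was 0.42 (95% interval -0.32 to 1.17, limma's adjusted p = 0.9997). It was -0.0076 without siLSD1 replicate 2 and 0.86 without siLSD1 replicate 1. Probe set 204388_s_at gave 5.76 and 6.06 in siLSD1 against 5.93 and 5.52 in siControl, again highest on siLSD1 replicate 2. Its groups did not overlap under median centring. Probe set 204389_at gave 5.18 and 5.22 in siLSD1 against 3.45 and 5.60 in siControl, and its difference of 0.67 turned to -0.40 without siControl replicate 1. The first 2 probe sets shared their highest and lowest arrays, and 204389_at had others.

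Across the 14 measurable probe sets of the members, siLSD1 replicate 2 held the lowest or highest value in 9, against 50.4% of all measurable probe sets, and siControl replicate 2 in 11, against 47.3%. For siLSD1 replicate 1 the count was 2, against 39.4%, and for siControl replicate 1 it was 6, against 62.9%. These counts describe the arrays, since the 14 probe sets share 7 genes and the same 4 libraries. For DDC, PNMT, GCH1 and MAOA the difference had another sign when 1 array was left out. DBH and SLC18A1 kept a negative difference, between -0.38 and -0.019 for DBH and between -0.26 and -0.040 for SLC18A1. The SLC6A2 difference lay between 0.46 and 0.70. The groups of its brightest probe set did not overlap, so leaving out 1 array could not turn that sign. Its probe sets 217621_at, 216611_s_at and 210353_s_at, whose groups overlapped, each turned negative in 1 of these fits.

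**Figure D4:**
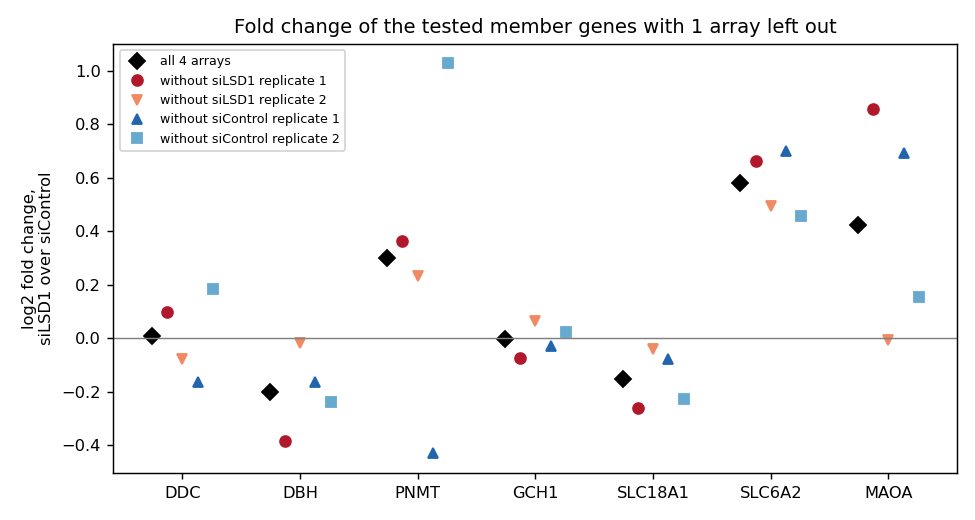
Log2 fold change of siLSD1 over siControl (y axis) for the 7 member genes above the filter, with all 4 arrays (black diamonds) and with each array left out in turn (coloured symbols as in the legend). SLC6A2 stays between 0.46 and 0.70, PNMT ranges from -0.43 to 1.03 and MAOA from -0.0076 to 0.86. The SLC6A2 groups did not overlap, so its sign could not turn when 1 array was left out.

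Further genes of catecholamine handling were taken from a list of 41, covering the rest of tetrahydrobiopterin supply, cofactors and chaperones, breakdown, other transport and receptors. Of these, 33 had a probe set of their own in the table used and 18 were above the filter. None of the 18 passed (background 0%), and none had an unadjusted p under 0.05 in limma (background 3.44%). With the mean of all probe sets limma's unadjusted p was 0.0282 for ATP7A (difference 0.57) and 0.0337 for ATP6V0A1 (-0.77). In that setting 438 genes were under 0.05. With a replicate term in the model limma's unadjusted p was 0.0290 for SLC29A4 (0.72), and 623 genes were under 0.05. None of these passed an adjusted p of 0.05. There were 7 with a positive and 11 with a negative difference, with a median of -0.10, and under median centring there were 12 and 5 of 17, since SLC6A3 was then below the filter. Groups did not overlap for 5 of the 18, against a background of 31.6%.

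In tetrahydrobiopterin supply, 5 of 6 genes were measurable, 3 with a positive and 2 with a negative difference. PCBD1, which helps to recycle the cofactor, was at 8.69 and 8.15 in siLSD1 and at 8.85 and 8.71 in siControl, a difference of -0.36 that was -0.091 without siLSD1 replicate 2 and -0.64 without siLSD1 replicate 1. PTS, which follows GCH1 in the synthesis, was at 9.31 on both siLSD1 arrays and at 8.60 and 9.37 in siControl, and its difference of 0.32 turned to -0.065 without siControl replicate 1. Neither difference passed (limma's adjusted p = 0.9997 for each). Among cofactor genes and chaperones, DNAJC12, a co-chaperone of TH and related hydroxylases, was at 10.07 and 10.05 in siLSD1 and at 10.37 and 10.14 in siControl. Both siLSD1 values were below both siControl values, with a difference of -0.19 (95% interval -0.49 to 0.10). It was -0.076 without siControl replicate 1, -0.31 without siControl replicate 2 and -0.055 under median centring. ATP7A, the copper pump that supplies copper to DBH, had a difference of 0.41 with overlapping groups, which was 0.82 without siControl replicate 1 and 0.0015 without siControl replicate 2. CYB561, which carries electrons into vesicles for the ascorbate that DBH uses, had a difference of 0.082 that turned to -0.14 with the mean of all its probe sets.

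For breakdown, 4 of 10 listed genes were measurable and all 4 had a negative difference, with a median of -0.21. Of all 11865 genes tested, 5773 had a negative difference. This direction depended on the scaling. Under median centring 5 of the 17 tested genes of the wider list were negative, and ALDH3A2, PCBD1, DNAJC12 and ATP6V0A1 were among these. The breakdown genes therefore did not all keep a negative difference there. ALDH2 and ADH5 were near 0, at -0.022 and -0.080 with overlapping groups, and the member MAOA had a positive difference. ALDH3A2, a fatty aldehyde dehydrogenase, was at 7.27 and 7.34 in siLSD1 and at 7.92 and 7.62 in siControl, a difference of -0.47 (95% interval -0.99 to 0.061, limma's adjusted p = 0.9997) with groups that did not overlap, and -0.25 under median centring. MAOB, the other monoamine oxidase, was at 4.52 and 4.41 in siLSD1 and at 5.58 and 4.02 in siControl, where the siControl values enclosed those of siLSD1. In other transport 2 genes had a positive and 2 a negative difference. SLC29A4, a plasma membrane monoamine transporter of low affinity, was at 6.57 and 7.24 in siLSD1 and at 5.74 and 6.64 in siControl, a difference of 0.72 (95% interval -0.14 to 1.57) with overlapping groups. It was 0.27 without siControl replicate 1, 1.16 without siControl replicate 2 and 0.38 without siLSD1 replicate 2. ATP6V0A1, a subunit of the proton pump that energises the vesicles, was at 7.54 and 7.45 in siLSD1 and at 7.70 and 8.05 in siControl, a difference of -0.38 (95% interval -0.91 to 0.15) with groups that did not overlap. It was -0.21 without siControl replicate 2, -0.14 under median centring and -0.77 with the mean of all probe sets. Among receptors, 2 of 14 listed genes, DRD2 and ADRA2C, were above the filter, with differences of -0.17 and -0.13 and overlapping groups.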

How the data were processed

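Expression was measured on 4 Affymetrix arrays of SH-SY5Y cells, 2 siLSD1 and 2 siControl, grouped and numbered by the sample titles. Per the labels' protocols, total RNA was column-purified and biotin-labelled as the manufacturer advises. The authors deposited 1 log2 value per probe set and array. The scale was found from the values, since base-2 antilogs had the same trimmed mean of 100.0 on every array. The sources used here do not name the summary method or software. Deposited medians differed by 0.266, over a tolerance of 0.25, so the 54675 probe sets, less 62 controls, were quantile normalized. Probe sets were named through the platform annotation, where 41091 had 1 symbol and 1801 several, and 41037 of these matched a RefSeq gene by Entrez identifier.

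Genes were represented by the probe set with the highest mean and filtered at the 40th percentile. The comparison used limma 3.58.1 under R 4.3.3 (lmFit, eBayes with trend, two-sided, no replicate term, Benjamini-Hochberg over all features, threshold 0.05), with 8.21 degrees of freedom in the gene fit and 6.82 in the probe set fit, most of them borrowed across features. The number of arrays limits the precision, and the median half-width of a gene's 95% interval was 0.58. The fitting step was tested on simulated data. The members and lists were chosen with earlier results of these data known. All members, and the 8 other listed genes with the smallest unadjusted p, were to be named, and MAOB, ALDH2, ADH5, DRD2 and ADRA2C were added after their values were seen. No 2 arrays were identical. Of the listed markers, 1 is not reported here. The alternatives are given in the closing section.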

Additional observations from a re-analysis of the deposited data

How the results depend on the processing

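The 0 genes past the threshold became 8 with a replicate block, and ranged from 0 to 93 with 1 array left out, with 93 without siControl replicate 2 and 1 without siLSD1 replicate 1. None of the 7 measurable members passed under any of these. The 0 probe sets past it ranged from 0 to 1. The count at an unadjusted p under 0.05, 408, was 623 with the block, 761 without a filter and 781 under median centring, and ranged from 226 to 1758 with 1 array left out, lowest without siLSD1 replicate 2 and highest without siControl replicate 2. KDM1A (-1.32) passed with the replicate block (-1.32, adjusted p = 0.0433 in limma) and without siControl replicate 2 (adjusted p = 0.0444), and ranged from -1.39 to -1.25 with 1 array left out. SLC6A2 was 0.58 with the block (adjusted p = 0.518 in limma), 0.54 under the deposited scaling, 0.72 under median centring and 0.49 with the mean of all its probe sets, where limma's unadjusted p was 0.112. DBH was -0.87 with the mean of its probe sets (limma's unadjusted p = 0.0184, adjusted p = 0.957), in place of -0.20. That mean includes 234916_at, which was below the filter level on all 4 arrays and had a difference of -1.55. Same-numbered arrays did not deviate together (r = 0.052 across genes). This correlation cannot tell whether they were handled as pairs, and the sample titles give only the number.

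The members' median of 0.010 was -0.021 under the deposited scaling, 0.18 without a filter and 0.15 under median centring, and ranged from -0.076 to 0.16 with 1 array left out. That of the wider list, -0.10, was 0.060 under median centring and ranged from -0.23 to 0.031. Its higher members numbered 12 and its lower members 5 under median centring, 13 and 20 without a filter, and 5 to 11 and 7 to 13 with 1 array left out. Median centring raised the median of all genes to 0.18, from 0.0071 under quantile normalization, and 9298 of 11865 genes were then higher in place of 6092.

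The signs that turned are given for the genes and probe sets followed through the alternatives. DDC turned under the deposited scaling (-0.021) and with the mean of its probe sets (-0.37). GCH1 (0.12) and SLC18A1 (0.079) turned under median centring, and CYB561 with the mean of its probe sets (-0.14). SLC6A2 239394_at turned under the deposited scaling (0.0089) and median centring (0.18). MAOB, ALDH2, ADH5, DRD2 and ADRA2C were not followed in this way. Under median centring they did not all keep a negative difference. There 5 genes of the wider list were negative, and ALDH3A2, PCBD1, DNAJC12 and ATP6V0A1 were among these. With 1 array left out, DDC ranged from -0.16 to 0.18, GCH1 from -0.073 to 0.066, MAOA from -0.0076 to 0.86, PNMT from -0.43 to 1.03, PTS from -0.065 to 0.71 and CYB561 from -0.034 to 0.20. Among single probe sets the ranges were -0.022 to 0.38 for MAOA 204388_s_at, -0.40 to 1.75 for MAOA 204389_at, -0.13 to 0.48 for SLC18A2 205857_at, -1.32 to 2.67 for TH, and for SLC6A2 -0.15 to 0.66 (210353_s_at), -0.11 to 0.79 (216611_s_at), -0.16 to 1.12 (217621_at) and -0.41 to 0.36 (239394_at). The causes were not tested. Signals below the filter level limit what can be said of TH, SLC18A2 and the second DBH probe set.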
